A study of Mus musculus with 8 samples.

Results

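The genes described here are 38 genes of mitosis and chromosome segregation, listed by name for what their proteins do. No measured value enters the rule, but the list was drawn up with earlier results of these data known. A probe belonged to a gene when it was no control spot and the gene name in the array files was that of the gene. Probes were found in this way for 37 of the 38 genes, 64 of the 41174 probes on the array. No probe carried the name Ncaph. After a filter on dim probes, 61 of the 64 probes and all 37 genes could be tested, among 33717 probes and 23349 genes in all. Each gene was represented by its tested probe with the highest mean level, and all 37 of these probes were well above background on all 8 arrays.

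The arrays compared testis RNA from wild-type male mice (VRK1+/+) with that from male mice mutant on both alleles of VRK1 (VRK1-/-), a gene for a nuclear serine/threonine kinase. There were 4 samples of each genotype, each described as a biological replicate and each hybridised to its own single-colour Agilent array. The RNA came from all cells of the testis together, germ cells and somatic cells. The sources used here give neither age, strain and litter nor the nature of the VRK1 mutation, nor whether a sample was 1 animal or a pool. The question was how RNA levels in the testis differ when VRK1 is disrupted, and it is put here to the genes that carry out cell division.

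When a cell divides, cyclin B bound to its kinase starts mitosis after Cdc25 phosphatases have removed inhibitory phosphates, and the Aurora and Polo kinases then build the spindle. The spindle assembly checkpoint holds back the anaphase-promoting complex until all chromosomes are attached. Once released, that complex has cyclin B and securin destroyed, separase opens cohesin, and the cell is cut apart by the central spindle and the contractile ring. In the testis these genes serve the mitoses of spermatogonia and the meiotic divisions of spermatocytes, which are the source of spermatids.

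Levels are given as the log2 of a spot's signal relative to the 75th percentile of its array, so that 0 lies at that percentile, and a difference is the mutant mean minus the wild-type mean. Probes differ in how brightly they bind, so a gap in level between probes is not read as a gap in RNA, and level serves only to pick a gene's probe and to sort genes by brightness. A gene was called changed at an adjusted p under 0.05 by limma with Benjamini-Hochberg adjustment over all 33717 probes. The probe of Vrk1 itself lay between -0.89 and -0.54 in wild type and between -3.17 and -2.72 in the mutant, a 4.78-fold fall (log2 difference -2.26, SE 0.15, adjusted p = 1.65e-04), and its second probe was 4.17-fold lower. The sources used here do not say which part of the gene is disrupted. Before scaling, the 75th percentile of signal ran from 679.7 to 790.02 on the wild-type arrays and from 928 to 1124 on the mutant arrays. Each genotype lay on its own slide with its own scan, so an effect of the slide and one of the genotype cannot be told apart in what follows.

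Of the 37 genes, 18 fell in the mutant, 1 rose and 18 did not pass the test. Among all 23349 genes tested in the same way, 12.4% fell and 21.7% rose (34% in either direction). The falls were small, between 0.43 and 0.84 on the log2 scale, and took in the 5 kinases, the B-type cyclins and genes of every other role group. The median difference of the 37 genes was -0.53, against 0.03 over all genes, and 33 of the 37 differences were below 0. For 24 genes all 4 mutant arrays lay below all 4 wild-type arrays, and for 1 gene they lay above. Over all genes these shares were 15.4% and 21.9%. In RNA of a whole organ, fewer dividing cells and less of an RNA per cell cannot be told apart.

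**Figure D1:**
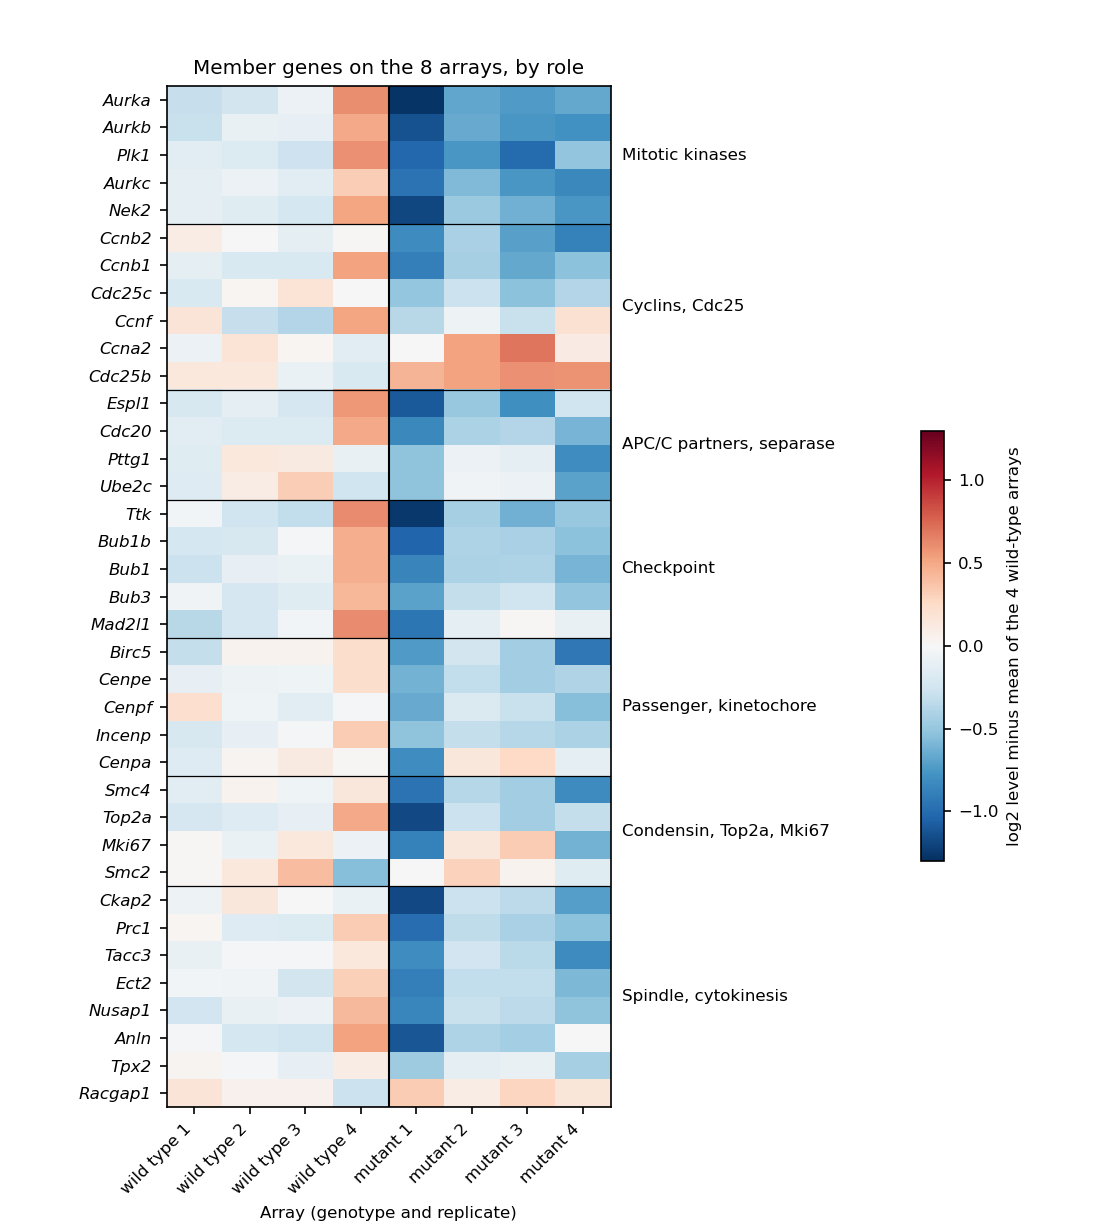
Colour shows the log2 level of each of the 37 genes on each array minus the mean of its 4 wild-type arrays, with the genes in rows by role and the arrays in columns. Most rows are blue in all 4 mutant columns and darkest in mutant replicate 1, while wild-type replicate 4 holds the highest value of the 8 arrays for 25 of the 37 genes.

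On single arrays, the mean log2 level of the 37 genes was 1.57, 1.61, 1.61 and 1.91 in wild-type replicates 1 to 4 and 0.92, 1.43, 1.36 and 1.22 in mutant replicates 1 to 4. The genotypes did not overlap in this mean, but 1 array of each stood apart. Wild-type replicate 4 was the highest of the 8 arrays for 25 genes, and mutant replicate 1 was the lowest for 26. Without these 2 arrays together, a setting chosen after the data were seen, Aurka, Aurkb, Aurkc, Ccnb2 and Plk1 still fell, Cdc25b still rose, and the median difference was -0.31. Without mutant replicates 1 and 4, which had the highest levels of epididymis markers (given with the other markers), no gene was called in either direction and the median was -0.35. That last fit had 2 mutant arrays. Over all probes it called 220 lower and 1318 higher, against 3655 and 7160 with all 8 arrays.

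Of the 38 genes, 32 were matched in RefSeq's promoter table for GRCm38.p6, and the 250 bases before each start were searched on both strands for 2 short motifs known from promoters of genes that peak late in the cell cycle. These were the CCAAT box, bound by the factor NF-Y, and the cell cycle genes homology region, called CHR and searched as TTTGAA on either strand. The first motif, CCAAT, was present in 24 of the 32 genes (75%), against 37.5% of the 27025 genes of the table. A CHR match was present in 12 (37.5%), against 18.3%, and all 12 held both motifs, which 6.45% of all genes did. No CCAAT match overlapped a CHR match in these windows. The motifs did not separate the genes that fell from those that did not pass: 80% of 15 genes that fell and 73.3% of 15 that did not pass held a CCAAT box, and 33.3% and 46.7% held a CHR match. A match is only a run of letters in a window. The 4 windows printed here show this spread, with the motifs in capitals: Cdc20 and Ccnb2, which fell, and Top2a, which did not pass, hold both motifs, while Aurkc, which fell, holds neither. They lie at chr4:118437344-118437593 (Cdc20, minus strand), chr9:70421555-70421804 (Ccnb2, minus strand), chr11:99024190-99024439 (Top2a, minus strand) and chr7:6995135-6995384 (Aurkc, plus strand), and each is written 5′ to 3′ and ends at the base before the start.
Cdc20: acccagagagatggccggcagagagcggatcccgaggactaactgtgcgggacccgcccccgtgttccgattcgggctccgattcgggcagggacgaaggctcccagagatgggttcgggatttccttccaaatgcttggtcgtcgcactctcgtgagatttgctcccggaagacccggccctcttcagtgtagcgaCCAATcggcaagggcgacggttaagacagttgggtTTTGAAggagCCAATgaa
Ccnb2: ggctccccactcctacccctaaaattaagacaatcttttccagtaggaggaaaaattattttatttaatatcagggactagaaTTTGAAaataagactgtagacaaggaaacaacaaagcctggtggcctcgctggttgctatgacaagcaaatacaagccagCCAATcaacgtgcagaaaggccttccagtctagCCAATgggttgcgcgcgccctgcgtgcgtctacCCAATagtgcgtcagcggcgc
Top2a: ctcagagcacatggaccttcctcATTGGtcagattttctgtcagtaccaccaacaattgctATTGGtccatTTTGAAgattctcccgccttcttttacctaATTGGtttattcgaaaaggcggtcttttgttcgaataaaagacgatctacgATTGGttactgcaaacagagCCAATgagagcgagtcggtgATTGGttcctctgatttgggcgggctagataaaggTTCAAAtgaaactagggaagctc
Aurkc: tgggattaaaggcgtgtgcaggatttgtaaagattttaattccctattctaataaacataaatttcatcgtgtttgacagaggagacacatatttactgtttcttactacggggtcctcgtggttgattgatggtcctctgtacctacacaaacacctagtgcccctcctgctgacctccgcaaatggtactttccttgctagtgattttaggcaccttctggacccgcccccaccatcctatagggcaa

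All 5 mitotic kinases fell, with a median difference of -0.82, the lowest of the 7 role groups, and a range of -0.84 to -0.76. Aurka, the Aurora kinase of centrosomes and spindle poles, had levels of 5.24, 5.30, 5.46 and 6.14 in wild-type replicates 1 to 4 and 4.26, 4.86, 4.80 and 4.88 in mutant replicates 1 to 4. All mutant values lay below the lowest wild-type value, with wild-type replicate 4 well above its group and mutant replicate 1 well below. Aurka was 1.78-fold lower (log2 difference -0.84, SE 0.23, adjusted p = 0.0229; probe at chr2:172148888-172148947 in the array's mm7 coordinates). Aurkb, the kinase of the chromosomal passenger complex, had levels of -2.18, -1.98, -2.00 and -1.39 in wild type and -3.02, -2.55, -2.64 and -2.67 in the mutant. Here too the groups did not overlap, and the same 2 arrays were the extremes. It was also 1.78-fold lower (difference -0.83, SE 0.19, adjusted p = 0.0126; chr11:69133109-69133168).

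Aurkc, the Aurora kinase that germ cells use in meiosis, gave 3.65, 3.69, 3.63 and 4.09 in wild type and 2.81, 3.19, 3.01 and 2.92 in the mutant. Its groups lay far apart for their spread, and it had the smallest adjusted p of the 37 genes (difference -0.78, SE 0.15, adjusted p = 0.00695). The second probe of Aurkc gave -0.63 with no overlap and did not pass (adjusted p = 0.0589). Plk1, the Polo-like kinase that drives entry into mitosis and centrosome maturation, gave 3.95, 3.92, 3.83 and 4.70 against 3.07, 3.34, 3.09 and 3.59. Wild-type replicate 4 was its outlying array. Plk1 fell by 0.82 (SE 0.22, adjusted p = 0.0194), and Nek2, a kinase of centrosome separation, fell by 0.76 (SE 0.21, adjusted p = 0.0238), from 3.70 to 4.43 in wild type down to 2.74 to 3.44 in the mutant. The calls of Aurkb and Aurkc were kept in all 8 fits that each left out 1 array. Those of Aurka and Plk1 ended without mutant replicate 1 or 3 and that of Nek2 without mutant replicate 1 or 4, and of the 5 only Aurkb and Aurkc passed with quantile normalization and only Aurkb with cyclic loess, where Aurkc gave -0.48 (adjusted p = 0.0509).

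The cyclins and Cdc25 phosphatases did not move as a group: of 6 genes, 3 fell, 1 rose and 2 did not pass. Ccnb2, a B-type cyclin of mitosis whose promoter window is printed above, had levels of 5.81, 5.71, 5.59 and 5.72 in wild type and between 4.82 and 5.28 in the mutant. Its wild-type arrays were close together and neither outlying array stood out. Ccnb2 was 1.63-fold lower (difference -0.71, SE 0.14, adjusted p = 0.00741), a call kept in all 8 fits that left out 1 array, though not with quantile normalization or cyclic loess, which gave down to -0.27. Cdc25b, a phosphatase that activates cyclin-dependent kinases before mitosis, gave -1.21, -1.21, -1.43 and -1.54 in wild type and -0.90, -0.83, -0.76 and -0.76 in the mutant. It was the only gene of the 37 that rose, with no overlap between the groups (difference 0.54, SE 0.13, adjusted p = 0.0157). The differences at its other 2 probes, 0.26 and 0.42, missed the threshold. The rise was kept in all 8 fits that left out 1 array and did not pass with median scaling, spike-in scaling or normexp background correction, with 0.32 as the lowest value.

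Cdc25c, a phosphatase of the same family, lay between -1.07 and -0.70 in wild type and between -1.41 and -1.16 in the mutant. It fell by 0.43 without overlap (SE 0.14, adjusted p = 0.0378), while its other probe gave 0.26 (adjusted p = 0.214). Ccna2, the A-type cyclin of dividing somatic cells and spermatogonia, overlapped between the groups at 0.34 (95% interval -0.06 to 0.73, adjusted p = 0.168). Ccnf, a cyclin that serves as a ubiquitin ligase subunit, gave -0.13 (95% interval -0.63 to 0.37, adjusted p = 0.665). Leaving out any of wild-type replicates 2 and 3 or mutant replicates 1, 3 and 4 ended the call of Cdc25c.

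Ccnb1, the other B-type cyclin of mitosis, showed how far a result can turn on the probe. The brightest of its 3 probes gave 2.91, 2.83, 2.83 and 3.56 in wild type and 2.15, 2.61, 2.37 and 2.50 in the mutant. It fell by 0.63 without overlap (SE 0.19, adjusted p = 0.0347). The probe between gave -0.12 (adjusted p = 0.718), and the one farthest from the brightest gave 0.56 (adjusted p = 0.119), with levels from -4.27 to -3.09 in wild type and from -3.22 to -2.63 in the mutant. In the array's mm7 coordinates they lie at chr13:97885282-97885341, chr13:97885016-97885075 and chr13:97884622-97884681, and all were well above background on all 8 arrays. Their first 30 bases are shown to tell the 3 apart, since the array files do not say which exon each one reads.
Ccnb1, brightest probe: gctggcacagctgaactgtacactagttca
Ccnb1, probe between: acagtggatccaactaatgtatatatctgt
Ccnb1, farthest probe: acagtattcctatcagcattccttacaatg
The call of the brightest probe was lost in 4 of the 8 fits that left out 1 array (wild-type replicate 3, mutant replicates 1, 3 and 4), and a mean over the 3 probes did not pass.

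Among the partners of the anaphase-promoting complex and separase, all 4 differences were below 0 and 1 gene passed. Cdc20, the activator that hands substrates to the complex, had levels of 5.01, 4.97, 4.96 and 5.64 in wild type and 4.30, 4.73, 4.76 and 4.54 in the mutant. The groups did not overlap, and wild-type replicate 4 stood apart. Cdc20 fell by 0.56 (SE 0.19, adjusted p = 0.0470), a call that ended whichever of the 8 arrays was left out, with adjusted p between 0.0508 and 0.117. With quantile normalization its difference was -0.21 and with cyclic loess -0.16. Espl1, separase itself, gave 1.72, 1.80, 1.71 and 2.49 in wild type and 0.84, 1.44, 1.13 and 1.67 in the mutant, with no overlap. Its difference was larger than that of Cdc20 but with a wider spread, and it did not pass (-0.66, SE 0.23, adjusted p = 0.0548). Pttg1, securin, the inhibitor of separase, gave -0.38 (adjusted p = 0.139), and Ube2c, the ubiquitin-conjugating enzyme of the complex, gave -0.33 (adjusted p = 0.209). Both overlapped between the groups, with mutant replicates 1 and 4 lowest.

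In the spindle assembly checkpoint all 5 differences were below 0 and 2 passed, both narrowly. Bub1, a checkpoint kinase at kinetochores, lay between 1.59 and 2.33 in wild type and between 1.01 and 1.46 in the mutant. It fell by 0.57 (SE 0.19, adjusted p = 0.0452). Bub1b, which encodes BubR1 of the mitotic checkpoint complex, lay between 1.33 and 2.03 in wild type and between 0.53 and 1.16 in the mutant and fell by 0.60 (SE 0.21, adjusted p = 0.0498). Neither gene overlapped between the groups, and each call was kept only without wild-type replicate 1 among the 8 fits. Ttk, the kinase Mps1 that starts the checkpoint signal, gave -0.92, -1.15, -1.20 and -0.26 in wild type and -2.13, -1.32, -1.51 and -1.37 in the mutant. Its difference of -0.70 exceeded those of Bub1 and Bub1b and did not pass (SE 0.25, 95% interval -1.26 to -0.14, adjusted p = 0.0559). Bub3, the partner of both Bub kinases, gave -0.45 with no overlap (adjusted p = 0.0801), with 0.25 and -0.10 at its other tested probes. Mad2l1, the Mad2 protein that binds Cdc20, gave -0.29 (95% interval -0.88 to 0.31, adjusted p = 0.418). Its mutant replicate 1 lay at -1.80, and the other 3 mutant arrays, at -0.99 to -0.85, were inside the wild-type range of -1.22 to -0.25. The other probe of Mad2l1 gave -0.23.

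Of the 5 genes of the chromosomal passenger complex and the kinetochore, 2 fell and 3 did not pass. Birc5, survivin of the passenger complex, had levels of 4.04, 4.40, 4.40 and 4.58 in wild type and 3.62, 4.11, 3.90 and 3.43 in the mutant. Mutant replicate 2 lay above wild-type replicate 1, so the groups overlapped, the only such case among the 19 called genes. Birc5 fell by 0.59 (SE 0.19, adjusted p = 0.0371). Cenpe, the kinesin that links kinetochores to microtubules, fell by 0.45 (SE 0.14, adjusted p = 0.0339), from 3.98 to 4.32 in wild type to 3.47 to 3.77 in the mutant, and 2 dimmer probes gave -0.32 and -0.02 without passing. With quantile normalization the difference of Cenpe was -0.13 and with cyclic loess -0.11. Incenp, the scaffold of the passenger complex, gave -0.41 with no overlap (adjusted p = 0.0608). The calls of Birc5 and Cenpe each ended in 6 of the 8 fits that left out 1 array, namely wild-type replicates 2, 3 and 4 and mutant replicates 1, 3 and 4.

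Cenpf, a large protein of the outer kinetochore, gave -0.42 at its brightest probe (adjusted p = 0.0581) and fell by 0.52 at its other probe (SE 0.16, adjusted p = 0.0339). Neither of these overlapped between the groups, so the 2 probes differ in their call and not in their direction. Cenpa, the histone that marks the centromere, differed between its probes by more than any other gene of the set. Its brighter probe gave -4.33, -4.13, -4.04 and -4.14 in wild type and -4.96, -4.01, -3.90 and -4.29 in the mutant, with overlap (difference -0.13, 95% interval -0.63 to 0.37, adjusted p = 0.666). At its dimmer probe the difference was 1.48 (SE 0.31, adjusted p = 0.00825). That probe was well above background on 1 of 4 wild-type arrays and on 4 of 4 mutant arrays. On 3 wild-type arrays its signal was at the floor of -6.12, so the difference depends on where the floor is set. The probes lie at chr5:29706873-29706932 (brighter) and chr5:29701723-29701782 (dimmer) in mm7, and their first 30 bases are shown to tell them apart.
Cenpa, brighter probe: ttaaaatataaggaagaaaaacctgaataa
Cenpa, dimmer probe: ttcctcttctatttctcaaaatctttcttt

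Chromosome structure genes were mixed. Smc4, a core subunit of condensin, had levels of 4.57, 4.76, 4.66 and 4.86 in wild type and 3.75, 4.34, 4.26 and 3.89 in the mutant. Its groups did not overlap, and mutant replicates 1 and 4 were lowest. Smc4 fell by 0.65 (SE 0.17, adjusted p = 0.0173), a call kept in all 8 fits that left out 1 array and lost with quantile normalization (-0.31, adjusted p = 0.173) and cyclic loess (-0.28, adjusted p = 0.194). Its other probe gave -0.40 (adjusted p = 0.101). Smc2, which pairs with Smc4 in condensin, gave 0.05 (95% interval -0.42 to 0.51, adjusted p = 0.878), and its other 3 probes gave -0.10, -0.24 and -0.34, so its direction was not settled. Top2a, the topoisomerase that untangles sister chromatids, gave 1.15, 1.20, 1.27 and 1.86 in wild type and 0.20, 1.09, 0.91 and 1.06 in the mutant. All mutant values were below all wild-type values, by a narrow gap on mutant replicate 2, and the difference of -0.55 did not pass (95% interval -1.08 to -0.02, adjusted p = 0.0969). Its other tested probe overlapped between the groups and gave 0.03. Mki67, the Ki-67 protein that coats mitotic chromosomes, was split within the mutant: replicates 1 and 4 lay at 0.46 and 0.72, below the wild-type range of 1.25 to 1.47, and replicates 2 and 3 lay at 1.48 and 1.67, above it. Its mean difference of -0.25 did not pass (adjusted p = 0.459) and was 0.24 without mutant replicates 1 and 4, and its other probe gave 0.03. A probe named Brrn1, an older name that shares its RefSeq accession with Ncaph, another condensin subunit, gave -0.29 (adjusted p = 0.363). It lies outside the rule and was looked up after the other values were seen.

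Of the 8 genes of spindle microtubules and cytokinesis, 4 fell and 4 did not pass. Ckap2, a microtubule-stabilising spindle protein, had levels of -0.55, -0.34, -0.49 and -0.57 in wild type and -1.66, -0.77, -0.83 and -1.20 in the mutant. The wild-type arrays were tightly grouped, and mutant replicate 1 was far below the rest. Ckap2 fell by 0.63 (SE 0.20, adjusted p = 0.0399). Prc1, which bundles microtubules of the central spindle, fell by 0.57 (SE 0.19, adjusted p = 0.0425), and Tacc3, a spindle protein and substrate of Aurora A, fell by 0.56 (SE 0.17, adjusted p = 0.0307). Ect2, the exchange factor that activates RhoA at the cleavage site, fell by 0.53 (SE 0.18, adjusted p = 0.0462). None of these 4 genes overlapped between the groups at these probes. The other probes of Ckap2 and Ect2 gave -0.42 and -0.29, with overlap and without passing. Leaving out 1 array at a time, Ckap2 and Tacc3 were called in 3 of 8 fits and Prc1 and Ect2 in 1 of 8, and without mutant replicate 1 none of the 4 was called.

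The other 4 genes of this group included Nusap1, a microtubule-binding protein of the spindle, which gave -0.50 with no overlap (adjusted p = 0.0676) and 0.16 at its other probe. Anln, anillin of the contractile ring, gave -0.49 (95% interval -1.06 to 0.08, adjusted p = 0.161), while its other probe gave 0.30. Tpx2, which targets and activates Aurora A on the spindle, gave -0.28 (adjusted p = 0.145). Whether its change differed from that of its partner Aurka was not tested. Racgap1, the GTPase-activating subunit of centralspindlin, was 1 of 4 genes above 0, at 0.22 (95% interval -0.10 to 0.54, adjusted p = 0.252), and its other probe gave -0.19.

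**Figure D2:**
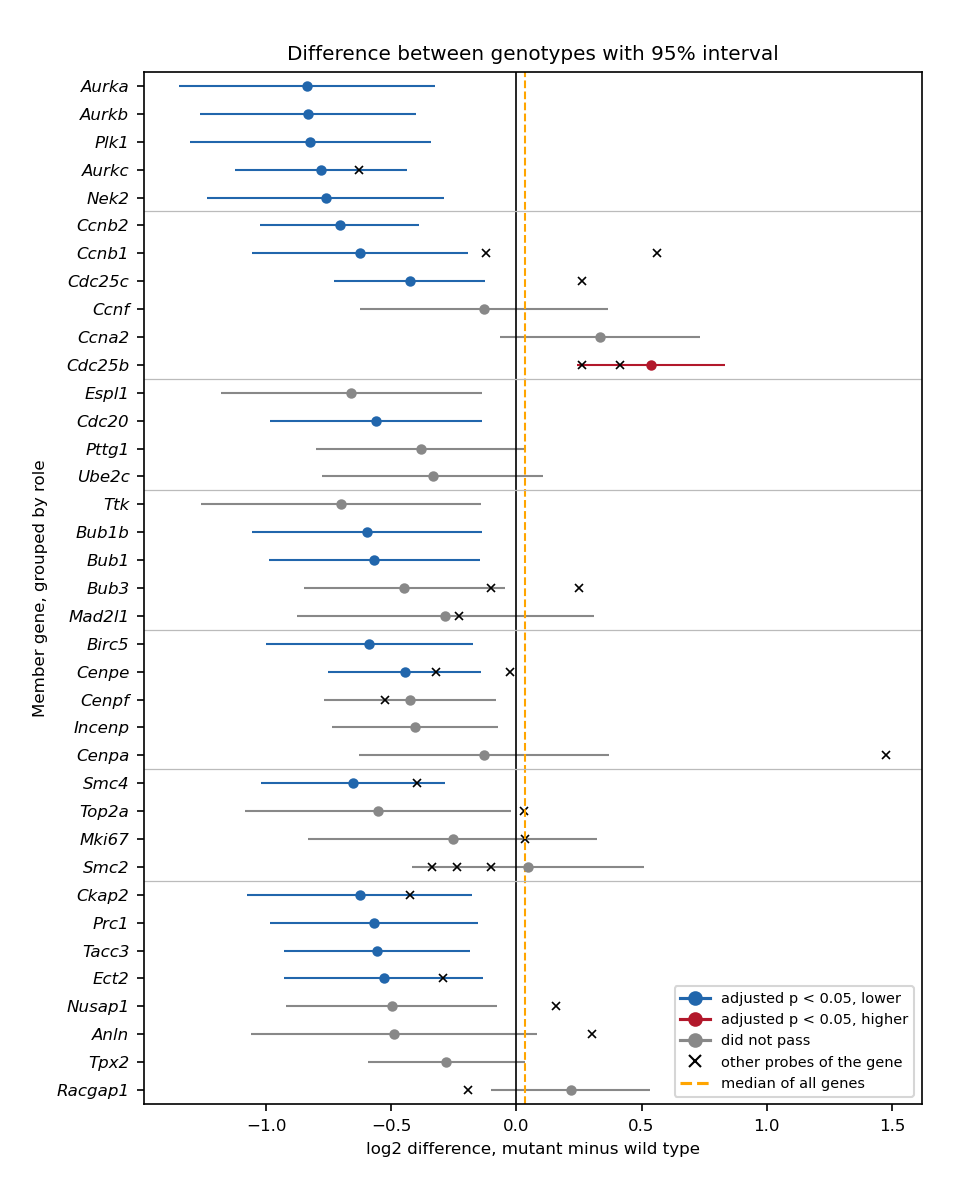
Points show the log2 difference, mutant minus wild type, of each of the 37 genes at its brightest probe with its 95% interval from limma, in blue for genes that fell, red for the gene that rose and grey for those that did not pass. Crosses are the other tested probes of the same gene and the dashed line is the median of all genes, 0.03. The 5 kinases lie between -0.84 and -0.76, Cdc25b alone passes on the higher side, and many crosses lie to the right of their point.

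Probes of the same gene often disagreed in size. The 3 probes too dim to be tested, of Espl1, Top2a and Bub3, were well above background on at most 1 of the 8 arrays. For 18 genes with at least 2 tested probes, all probes lay on the same side of 0 for 8 and on both sides for 10, and none had probes called in both directions. The 24 probes that did not represent their gene had a median difference of -0.10, with 14 of them below 0, 1 called lower and 1 called higher. Over all probes, 10.8% were called lower and 21.2% higher. With a mean over the probes of each gene in place of the brightest, 15 genes fell and 2 rose. The second was Cenpa, whose dimmer probe was at the floor on 3 wild-type arrays. Ccnb1, Cdc25c, Cenpe and Ckap2 were no longer called. The median of the mitosis genes was -0.41 in that fit, against 0.09 over all genes, and the shares of all genes called in it are not given here.

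Genes with bright probes as a whole were lower in the mutant, and most of the 37 genes had bright probes. The median difference of all genes ran from 0.56 at the lowest mean levels to -0.45 at the highest, as the plot of level against difference shows. Of the 37 genes, 25 had a mean level above 0, a limit set after the data were seen. All 25 lay below 0 in difference, with a median of -0.56, and 15 of them fell (60%), against a median of -0.30 and 23.9% among the 8338 genes tested above that level. At or below it, 3 of 12 genes fell, with a median of -0.21, against 5.95% and 0.24 among 15011 genes. Of the same 12 genes 1 rose, Cdc25b, against 27% of the 15011. The median of the mitosis genes thus lay below the median of all genes in both ranges of level, though single genes such as Cdc25b did not. Whether the link between level and difference came from the cells, the slides or the scaling was not tested.

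**Figure D3:**
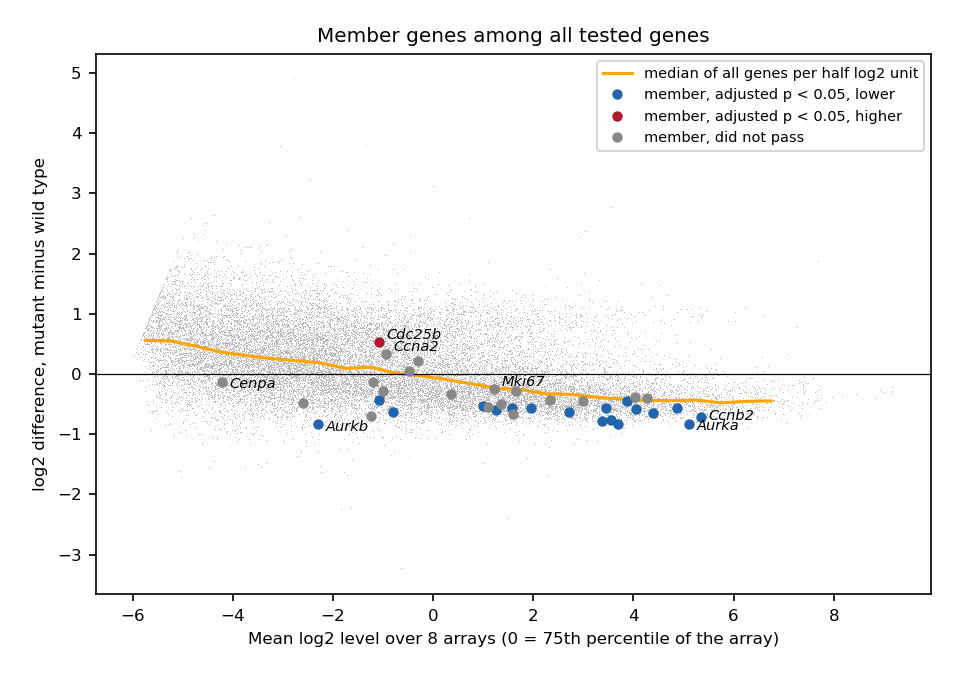
Grey dots are all 23349 tested genes by mean log2 level over the 8 arrays and log2 difference, mutant minus wild type, and the line is their median per bin of level. Large points are the 37 mitosis genes, coloured by call: those with a mean level above 0 all lie below 0 in difference, and Cdc25b is the only one called higher.

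Further genes of mitosis also fell more often than they rose. A list of 95 further genes, covering kinesins, kinetochore and cohesin subunits and other parts of the anaphase-promoting complex, had 83 on the array, all tested. Of these 26 fell, 1 rose and 56 did not pass, with a median difference of -0.36, against 12.4% lower, 21.7% higher and a median of 0.03 over all genes. The mean log2 level of this list was 1.23 to 1.37 on the wild-type arrays. Among all genes with a mean level above 0, 23.9% fell and the median was -0.30. The 83 genes were not sorted by level. The 4 with the smallest adjusted p among those that fell were Mastl, the Greatwall kinase that keeps a phosphatase off mitotic substrates (-0.72, SE 0.14, adjusted p = 0.00744), Cdca3, a trigger of mitotic entry (-0.66, adjusted p = 0.0078), Bora, the activator of Aurora A and Plk1, listed as 6720463M24Rik (-0.64, adjusted p = 0.00853), and Cdca5, sororin, which protects sister cohesion (-0.61, adjusted p = 0.0123). Mastl lay between -0.10 and 0.16 in wild type and between -0.96 and -0.49 in the mutant, without overlap. Smc1a, the cohesin subunit of mitotic cells, rose by 0.73 (SE 0.14, adjusted p = 0.00674), from between -0.04 and 0.27 to between 0.60 and 1.00. All 5 calls were kept in all 8 fits that left out 1 array. That of Cdca3 ended with quantile normalization (-0.31, adjusted p = 0.0907) and cyclic loess (-0.29), that of Cdca5 with cyclic loess (-0.39, adjusted p = 0.0534) and normexp (-0.46), and that of Mastl with the mean of its probes (-0.41, adjusted p = 0.149). Without mutant replicates 1 and 4 none of the 83 genes passed, in a fit that called 220 of all probes lower and 1318 higher.

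Several lists of germ cell markers also had lower levels in the mutant, and several lists of somatic markers had higher ones. Over all genes, 12.4% fell and 21.7% rose. Of 10 markers of late spermatocytes, a list that holds Aurkc, 8 fell and 2 did not pass, and their summed signal was 578 to 629 times the 75th percentile in wild type and 386 to 516 in the mutant. Of 7 markers of all germ cells, 4 fell and 3 did not pass, with sums of 192 to 228 and 111 to 185, and the mean log2 level was lowest in mutant replicates 1 and 4 (3.04 and 3.24, against 3.81 and 3.78 in replicates 2 and 3). For the 37 mitosis genes the sums were 330 to 446 and 198 to 272. The median difference was -0.61 for late spermatocytes and -0.57 for all germ cells. These medians were -0.32 and -0.22 with quantile normalization, -0.26 and -0.18 with cyclic loess, and the second was -0.28 without mutant replicates 1 and 4. The mean level of both lists was above 3 on every array. Among all genes with a mean level above 3, 35.5% fell and the median was -0.42. Of 10 tested markers of meiotic prophase 3 fell (median -0.55), of 10 of round spermatids 5 fell (median -0.53), and of 9 of elongating spermatids 1 fell (median -0.15). The rest of these did not pass. Both spermatid lists too had a mean level above 3 on every array. That of the meiotic prophase list lay between 0 and 3, where 19.1% of all genes fell and the median was -0.23. Of 8 listed markers of differentiating spermatogonia, 7 were tested: 2 rose, 2 fell and 3 did not pass, with a median of 0.20. Of 12 markers of undifferentiated spermatogonia 5 rose and 7 did not pass, with a median of 0.13 (-0.12 with quantile normalization). Their mean level was below 0 on every array. Among all genes with a mean level of 0 or below, 27% rose and the median was 0.24. Of 15 Sertoli cell markers 13 rose and 2 did not pass, with sums of 99.3 to 157 in wild type and 231 to 325 in the mutant. Of 9 Leydig cell markers 5 rose, of 8 macrophage markers 6 and of 5 endothelial markers 2 (median 0.33), the rest not passing. The endothelial list too had a mean level below 0 on every array. None of 5 markers of peritubular myoid cells passed (median -0.03). The part of these cell types in the differences of the mitosis genes was not tested.

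Epididymis markers differed within the mutant. Of 8 listed, 7 were on the array and 3 passed the filter on dim probes, and Cd52 and Crisp1 rose. The summed signal of the 3 was 0.232 to 0.488 in wild type and 22.0, 1.12, 0.644 and 15.9 in mutant replicates 1 to 4. Mutant replicates 1 and 4, which had the most of this RNA, also had the lowest mean level of the mitosis genes (0.92 and 1.22). The part of epididymis RNA in the falls was not tested. Without these arrays the median difference of the 37 genes was -0.35, and 31 of the 37 differences were still below 0.

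**Figure D4:**
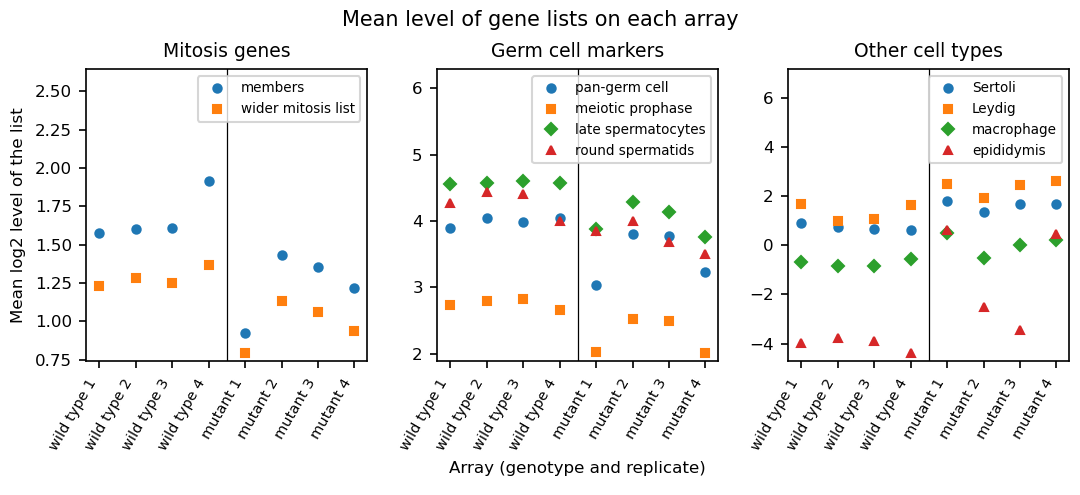
Points show the mean log2 level of each gene list on each array, wild type to the left of the line and mutant to the right, in 3 panels for mitosis genes, germ cell markers and other cell types. The mitosis genes are lowest in mutant replicate 1 (0.92). The lists of all germ cells, meiotic prophase and late spermatocytes are lowest in mutant replicates 1 and 4, and the epididymis markers are high in those same 2 arrays. The round spermatid list is instead lowest in mutant replicates 3 and 4.

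How many of the genes passed depended on the scaling and on the arrays, and the direction of the set did so less. Between 31 and 35 of the 37 differences were below 0 under every setting that was run with this filter on dim probes or a stricter one. The number that fell was 18 as reported, 29 with median scaling and 14 with spike-in scaling. It was 10 with normexp background correction, 5 with quantile normalization and 3 with cyclic loess. Over all probes, 3655 were called lower as reported and 8768 with median scaling, so the 29 came with more falls in general. The shares of all genes that fell with spike-in scaling and with normexp are not given here. Whether the 14 and the 10 exceed those shares is therefore left unsaid. The counts of 5 and 3 are no clear excess over the 12.4% of all genes that fell as reported. That share is from the reported setting, and the shares in the fits with quantile normalization and cyclic loess are not given here. Median scaling and normexp also shifted the median of all genes, to -0.18 and -0.22. Relative to the median of all genes, the median of the 37 genes was -0.56 with scaling to the 75th percentile, -0.56 with median scaling, -0.34 with cyclic loess, -0.30 with quantile normalization and -0.27 with normexp. Leaving out 1 array at a time left between 4 genes (without mutant replicate 1) and 16 (without either wild-type replicate 1 or mutant replicate 2) called lower. Of the 18 genes that fell, Aurkb, Aurkc, Cdc25c and Ckap2 were also called with quantile normalization and Aurkb, Cdc25c and Ckap2 with cyclic loess. The others ran from -0.53 (Plk1) to -0.13 (Cenpe) with quantile normalization. With the mean of a gene's probes, Cdc25c (-0.08, adjusted p = 0.648) and Ckap2 (-0.53, adjusted p = 0.0717) did not pass. Aurkb, Aurkc, Ccnb2, Smc4 and Cdc25b were called in all 8 fits that left out 1 array. Aurkb was called under every setting run except without mutant replicates 1 and 4 (range -1.05 to -0.57 over the others).

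**Figure D5:**
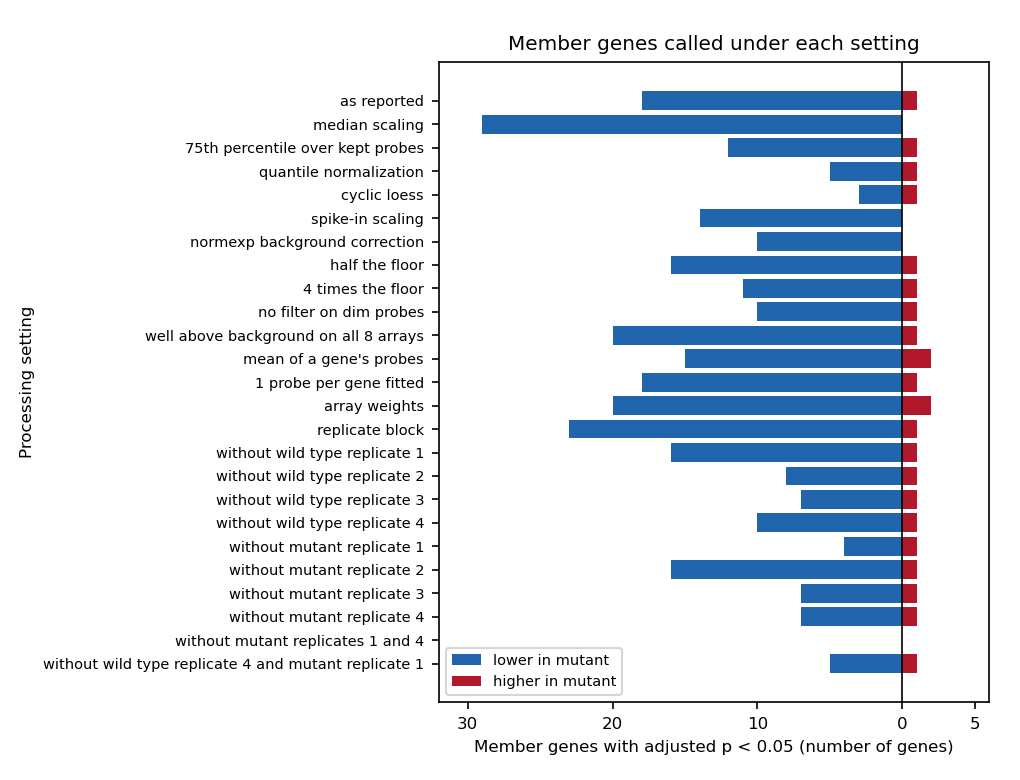
Bars give the number of the 37 mitosis genes called lower (to the left of 0) or higher (to the right) at an adjusted p under 0.05 under each processing setting and with arrays left out. The count of lower genes runs from 29 with median scaling to 0 without mutant replicates 1 and 4, and 18 as reported.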

How the data were processed

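Total RNA of whole testicular cells was labelled with Cy3 and hybridised to single-colour Agilent mouse arrays, per the labels' protocols. The deposited intensity values are the processed signals of Agilent Feature Extraction 9.5.3.1 (per the submitters' processing notes), background-subtracted and detrended within each array and not scaled between arrays, per the file headers. The deposited value table of the series equals them (45018 of 45018 features on every array, relative tolerance 1e-04).

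Signals were scaled to the 75th percentile of the non-control features of each array, values under 0.0144 of it were set to that floor because some signals were negative, and log2 was taken. Outlier spots were left out and spots of a probe averaged. A probe was kept if 4 or more of the 8 arrays had it well above background and each group had 3 values. The effect of genotype was fitted in R 4.3.3 by limma 3.58.1 (lmFit, eBayes, two-sided, all 8 arrays, Benjamini-Hochberg adjustment); p-values measure only the spread between these samples. The procedure was tested on simulated data. Genes named were all 38 symbols with their tested probes, Vrk1, and of the wider list the 4 with the smallest adjusted p in each direction (1 rose). Brrn1, Cd52 and Crisp1 fall outside this rule and were named after their values were seen. Members and lists were chosen with earlier results of these data known. Same-numbered samples were checked for pairing (correlations of deviations 0.28, 0.24, 0.09 and 0.61), and the numbers, which are also the positions on the slide, were not taken as pairs. Alternatives were other scalings, background correction, floors, filters, probe rules, array weights, a replicate block and arrays left out. The number of arrays limits the precision, and arrays correlated at 0.966 to 0.995 within a genotype and at 0.953 to 0.984 across genotypes.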

Additional observations from a re-analysis of the deposited data

Results flagged for a closer look

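Of 86 groups of 4 arrays examined for an array far from its group (a gap to the nearest array beyond Dixon's 95% limit), 11 held one, and chance gives about 1 in 20 groups. In 9 of them wild-type replicate 4 lay above the other 3 wild-type arrays: Aurkc (4.09, others 3.63 to 3.69), Ccnb1 (3.56, others 2.83 to 2.91), Cdc20 (5.64, others 4.96 to 5.01), Cenpe (4.32, others 3.98 to 4.03), Espl1 (2.49, others 1.71 to 1.80), Nek2 (4.43, others 3.70 to 3.80), Plk1 (4.70, others 3.83 to 3.95), Top2a (1.86, others 1.15 to 1.27) and Bora, listed as 6720463M24Rik (1.90, others 1.57 to 1.60). In the other 2, mutant replicate 1 lay below the other mutant arrays: Aurka (4.26, others 4.80 to 4.88) and Mad2l1 (-1.80, others -0.99 to -0.85). All values are log2 levels relative to the 75th percentile of the array. Genes of the same arrays are not independent of each other.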

How the results depend on the processing

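Of the 37 genes, 18 fell and 1 rose as reported. The number that fell was 29 with median scaling, 5 with quantile normalization, 3 with cyclic loess, 10 with normexp, 11 with a floor raised 4 times, 10 without a filter on dim probes, 5 without wild-type replicate 4 and mutant replicate 1 together (added after seeing the data) and 0 without mutant replicates 1 and 4. Leaving out 1 array gave 4 to 16. The number that rose was 0 with median scaling, spike-in scaling, normexp and without mutant replicates 1 and 4, and 2 with the mean of a gene's probes and with array weights. Of the 83 wider genes, 26 fell as reported, 48 with median scaling, 42 with array weights, 13 with quantile normalization, 10 with cyclic loess, 11 without the 2 outlying arrays, 0 without mutant replicates 1 and 4, and 12 to 29 with 1 array left out. From 1 as reported, the wider genes that rose became 2 with the 75th percentile over kept probes, normexp, 1 probe per gene or without the 2 outlying arrays, 3 with quantile normalization, cyclic loess, the raised floor, no filter or the replicate block, 4 with the mean of probes, 11 with array weights, 0 without mutant replicates 1 and 4, and 1 to 3 with 1 array left out. Their median of -0.36 was -0.58 with median scaling and -0.23 without mutant replicates 1 and 4. Of all probes, 7160 rose as reported, 4491 with median scaling, 4405 with quantile normalization, 2092 with normexp and 1318 without mutant replicates 1 and 4, and 3655 fell, 8768 with median scaling, 8424 with array weights, 5913 with the replicate block, 220 without mutant replicates 1 and 4, and 1666 to 4411 with 1 array left out. The cause of these shifts was not tested.

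With the replicate number as a block, 23 of the 37 genes fell and 1 rose, with Espl1 (adjusted p = 0.00932), Ttk (0.0261), Top2a (0.0321), Nusap1 (0.0372) and Incenp (0.0465) called in addition by limma. The number is also the position on the slide. It was not taken to pair the samples, since the correlation of deviations was over 0.1 for 3 of the 4 numbers and 0.09 for replicate 3, and wild-type replicate 3 correlated best with mutant replicate 2 (0.20).

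Differences near 0 changed sign. Cenpa gave 0.063 with the raised floor, 0.67 with the mean of its probes, 0.013 with array weights, 0.21 without mutant replicates 1 and 4 and 0.099 without the 2 outlying arrays, which gave Ccnf 0.12, Mad2l1 0.14 and Smc2 -0.12. Array weights gave Ccnf 0.053, Mki67 0.028 and Smc2 -0.16. Smc2 was also -0.17 with median scaling, -0.0070 with spike-in scaling, -0.072 with normexp and -0.16 with the mean of its probes, Racgap1 -7.40e-05 with median scaling, and Mki67 0.24 without mutant replicates 1 and 4. Over fits that left out 1 array, Cenpa ran from -0.26 to 0.094, Ccnf from -0.26 to 0.039 and Smc2 from -0.14 to 0.18. The median of all genes was -0.18 with median scaling, -0.052 with quantile normalization, -0.020 with spike-in scaling, -0.22 with normexp, -0.051 with the filter on all 8 arrays and 0 with the raised floor or no filter. Elongating spermatid markers had a median of 0.21 after quantile normalization and 0.35 after cyclic loess, that of endothelial markers -0.052 with normexp, and that of undifferentiated spermatogonia -0.092 with median scaling, -0.12 with quantile normalization, -0.11 with cyclic loess, -0.18 with normexp, -0.0089 without the 2 outlying arrays and -0.0021 to 0.26 with 1 array left out.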
